A study of Rattus norvegicus with 2 samples.

Results

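Neutrophil granule and receptor genes were examined on 2 one-colour Agilent arrays of rat intracranial arteries. The set was a given list of 10 genes, S100a8, S100a9, Mpo, Elane, Lcn2, Ngp, Camp, Ltf, Csf3r and Fpr1, out of 15159 genes that the arrays' accessions could be matched to. One array held an intracranial aneurysm lesion (n = 1) collected 3 weeks after induction, and the other held intracranial arterial wall of the untreated control (n = 1). The labels give no strain, age, sex, induction procedure or number of animals for either sample, so it is not known whether tissue was pooled. A probe was matched to 9 of the 10 genes, with 1 probe per gene. Mpo, which encodes the myeloperoxidase of primary granules, was matched to none and is not analysed here. Of the 9 genes, 6 were well above background and 3 were not well above background on either array.

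Neutrophils are short-lived blood leukocytes that are made in bone marrow under the growth factor G-CSF and carry ready-made proteins in granules of several kinds. Primary granules hold serine proteases and myeloperoxidase, and secondary granules hold iron-binding and antimicrobial proteins. Their messenger RNAs are made mainly in bone marrow precursors, and many of them are scarce in mature cells, whereas calprotectin (S100a8 and S100a9), G-CSF receptor and formyl peptide receptor transcripts persist in circulating neutrophils. Some of these genes are not particular to neutrophils. Lcn2 is also transcribed in liver and epithelium during the acute phase response.

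Each group had 1 array, so the differences have no replicate check and carry no test or p-value, and they describe these libraries only. The arrays share 1 slide and scan. On the aneurysm array 76.4% of non-control spots were well above background, against 74.7% on the control array, and 0 spots were saturated. Intensities below are the scanner software's processed signals as deposited, on a linear scale that differs between arrays. The 75th percentile was 801 on the aneurysm array and 621 on the control array. A level is log2 intensity minus that percentile, and a difference is the aneurysm level minus the control level. The value after ± is the spot error, taken from how far repeat spots lay apart on each array, pooled over probes of like signal. It is not the spread of the gene's own spots and does not cover variation between animals. Levels of different probes cannot be set against each other. In bulk tissue, fewer cells of a type and less RNA per cell cannot be told apart.

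The largest difference in the set was that of Lcn2, and the promoters of Lcn2 and S100a9 are shown because Lcn2 lay beyond 2-fold and S100a9 did not. Both run 5′ to 3′ on the minus strand of RefSeq build GRCr8, from 250 bases before to 50 bases after the gene's start. The Lcn2 window is chr3:36081731-36082030 and the S100a9 window is chr2:178490573-178490872. Capitals mark matches on either strand to TTNCNNAA, a pattern for C/EBP factors of granulocyte and acute phase genes, and to GGG and TCC parted by any 4 bases, a loose pattern for NF-kappaB.
Lcn2: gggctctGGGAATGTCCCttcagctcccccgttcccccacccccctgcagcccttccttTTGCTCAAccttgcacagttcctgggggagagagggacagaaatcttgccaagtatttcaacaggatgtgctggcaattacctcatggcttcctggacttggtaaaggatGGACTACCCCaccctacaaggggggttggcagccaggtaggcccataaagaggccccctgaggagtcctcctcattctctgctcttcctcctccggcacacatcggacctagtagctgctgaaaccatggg
S100a9: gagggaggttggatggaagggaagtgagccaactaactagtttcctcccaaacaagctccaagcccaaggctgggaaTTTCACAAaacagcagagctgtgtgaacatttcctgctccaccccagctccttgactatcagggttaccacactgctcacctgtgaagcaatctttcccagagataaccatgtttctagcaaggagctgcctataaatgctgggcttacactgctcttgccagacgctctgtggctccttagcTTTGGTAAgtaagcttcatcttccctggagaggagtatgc
The Lcn2 window held 1 C/EBP match, 191 bases upstream of the start, and 3 NF-kappaB matches, of which those 243 and 242 bases upstream overlap on opposite strands. S100a9 held 2 C/EBP matches and 0 NF-kappaB matches. Of 33469 rat promoters of the same length, 41.3% held the C/EBP pattern and 17.9% the NF-kappaB pattern. A promoter was given for 8 of the 10 genes, and 6 of the 8 held the C/EBP pattern, namely S100a9, Mpo, Lcn2, Ngp, Csf3r and Fpr1. The NF-kappaB pattern occurred in 2 of the 8, Lcn2 and Mpo. A match is a description of the letters and not a binding site.

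Across the 6 measured genes, 1 was at least 2-fold lower in aneurysm than in control and 0 were at least 2-fold higher. Among all 11902 genes with a value, 3.91% were at least 2-fold lower and 0.882% at least 2-fold higher. The median difference of the 6 genes was -0.33, against 0.001 over all genes. These are 6 probes on 1 pair of arrays, and 4 of the 6 differences were below 0, a sign that 49.8% of all genes shared.

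Calprotectin is a pair of calcium-binding proteins that makes up much of the neutrophil cytosol and is also made by monocytes. The S100a8 spots had intensities of 84.5 and 75.4 in the aneurysm library, against 74.9 and 80.1 in the control. The S100a9 spots had intensities of 110.2 and 116.3 in the aneurysm library, against 114.1 and 111.5 in the control. For both genes the unscaled spots of the 2 arrays overlapped. Because the aneurysm array had the higher 75th percentile, scaling placed both aneurysm spots below both control spots, with a difference of -0.32 ± 0.17 for S100a8 and -0.36 ± 0.15 for S100a9. Neither reached 2-fold. With spike-in scaling, which uses RNAs added to each sample, the differences were -0.019 and -0.058 and the median of all genes lay at 0.30, since that scaling moves every gene by the same amount.

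**Figure D1:**
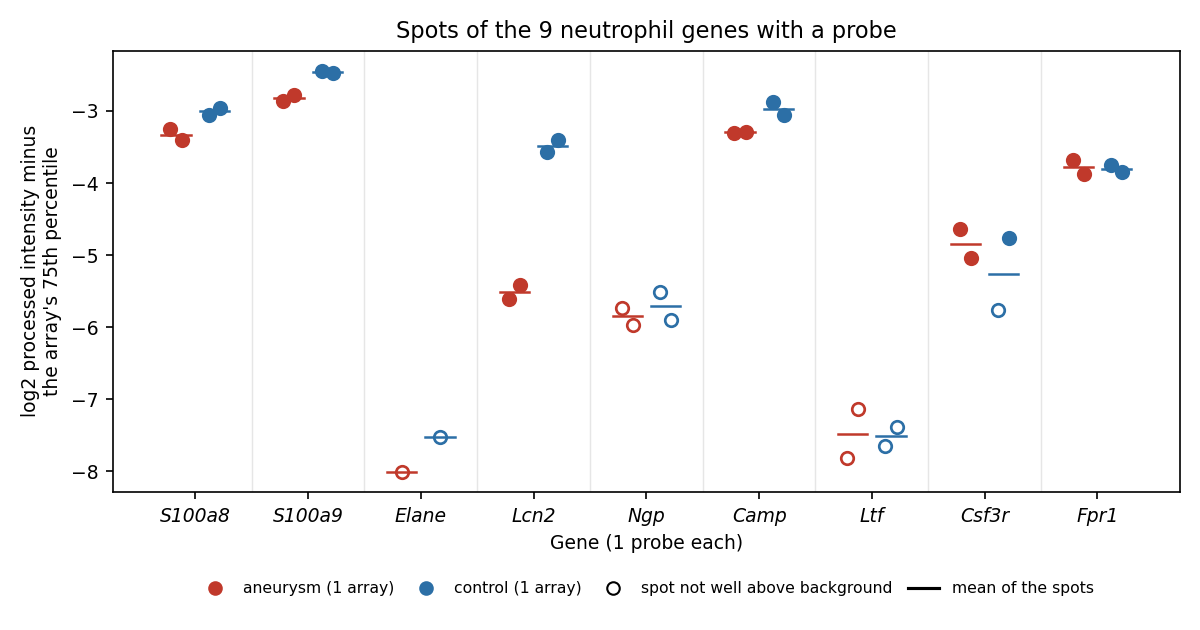
Levels of the 9 genes with a probe, as log2 processed intensity minus the array's 75th percentile, for each spot of the aneurysm array (red) and the control array (blue). Filled points are well above background, open points are not, and bars are the mean of the spots. The S100a8, S100a9, Lcn2 and Camp spots are separated between arrays, most widely for Lcn2, whereas the Ngp, Ltf, Csf3r and Fpr1 spots overlap. Heights of different genes cannot be compared.

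Values differed among the secondary granule genes. Lcn2 encodes lipocalin 2, which binds iron-carrying siderophores. Its spots had intensities of 16.5 and 18.8 in the aneurysm library, against 52.3 and 58.8 in the control, all 4 well above background. The aneurysm spots were dim, little above an Ngp spot of that array at 15.1 that was not well above background. Both aneurysm spots lay below both control spots, and the level was 4.08-fold lower in the aneurysm library (difference -2.03 ± 0.28). With normexp background correction, which adds an offset that shrinks differences of dim probes by construction, the difference was -1.01 on processed signals and -0.98, under 2-fold, on median signals. Values given below with normexp are those on processed signals unless median signals are named.

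Camp, which encodes the cathelicidin antimicrobial peptide, had intensities of 81.3 and 81.7 in the aneurysm library, against 84.3 and 74.3 in the control. The unscaled aneurysm spots lay between the control spots, and the scaled difference was -0.33 ± 0.17 (-0.020 with spike-in scaling). Ngp, a neutrophil granule protein of the cathelicidin-related family, had intensities of 15.1 and 12.8 in the aneurysm library and of 13.6 and 10.4 in the control. Ltf, which encodes the iron-binding lactoferrin, had intensities of 3.56 and 5.71 in the aneurysm library and of 3.11 and 3.72 in the control. No spot of Ngp or Ltf was well above background and their spots overlapped between arrays, so no difference is given for either gene.

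Among primary granule proteases, Elane, which encodes neutrophil elastase, was read by 1 spot per array. It had an intensity of 3.12 in the aneurysm library and of 3.39 in the control, neither of them well above background. A difference of this gene was therefore not detectable on these arrays.

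Both receptor genes were measured close to the limit of detection or without separation. Csf3r encodes the G-CSF receptor, which drives neutrophil production and survival. Its spots had intensities of 32.2 and 24.3 in the aneurysm library, against 11.5 and 22.9 in the control, and the control spot at 11.5 was not well above background. The scaled spots overlapped, and the difference of 0.42 ± 0.49 was smaller than its spot error. It was -0.11 and -0.15 under the 2 normexp settings and 0.72 with spike-in scaling.

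Fpr1 encodes the formyl peptide receptor, which senses bacterial and mitochondrial peptides. Its spots had intensities of 62.3 and 54.7 in the aneurysm library, against 45.9 and 43.2 in the control. After scaling the spots overlapped and the difference was 0.02 ± 0.27. It ranged from -0.20 with normexp on median signals to 0.33 with spike-in scaling, so its sign was not fixed by these arrays.

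**Figure D2:**
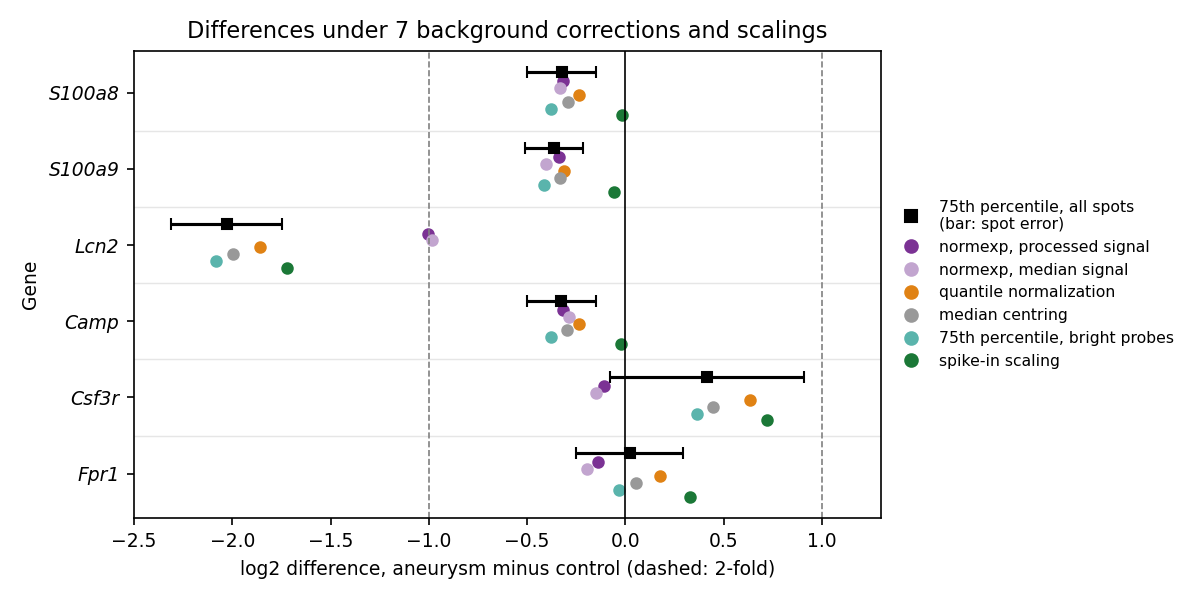
Log2 difference, aneurysm minus control, of the 6 measured genes under 7 background corrections and scalings. Black squares with bars are the reported values with their spot errors, coloured points are the alternatives and dashed lines mark 2-fold. Lcn2 lies between -2.08 and -0.98, and Csf3r and Fpr1 have points on both sides of 0.

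Lcn2 was lower beside a large group of liver and acute phase genes. Of 14 measured genes of that list, 14 were below 0 and 13 were at least 2-fold lower in the aneurysm library, with a median of -4.30 (-4.35 to -2.80 over 6 other corrections and scalings). The summed level of the list was 4.36 times the array's 75th percentile in the aneurysm library and 39.3 times in the control, and Crp was below the detection flag on both arrays. Such a sum, here and for the lists below, is set mostly by the brightest probes of a list and does not describe each gene. Alb, which encodes serum albumin, was 45.8-fold lower in the aneurysm library. Ambp (-5.65 ± 0.13), Fgb (-5.59 ± 0.17) and Fga (39.6-fold lower as measured, well above background in the control only) were also lower. With normexp on median signals these were -4.38, -4.19 and -2.47. Hp, which encodes haptoglobin, a protein of both liver and neutrophil granules, had a mean intensity of 153 in the aneurysm library, against 3821 in the control, and was 32.3-fold lower. Lbp, the lipopolysaccharide-binding protein of the acute phase, was at -0.01 ± 0.12. The part of liver transcripts in the difference of Lcn2 was not tested.

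Other genes of neutrophil function were taken from 7 lists that hold 84 genes besides the set, of which 69 had a probe and 50 a difference or bound. Of these 50, 33 were above 0 and 17 below, 0 were at least 2-fold higher and 3 at least 2-fold lower, with a median of 0.14. The signs include genes well above background on 1 array only, whose sign could point only toward that array. Among them were Prtn3, Defa24, C5ar2 and Cxcl1 above 0, and Olfm4, Cxcr2 and Cxcl6 below. The same rule applied to all genes. Over all genes 50.2% were above 0. With normexp on processed signals 20 of 45 were above 0 and 25 below, so the balance of signs turned, and 40.3% of all genes were then above 0. Fewer genes had a value there because those above background in the aneurysm library only are left out where their bound is not above 0. The 3 lower genes were Hp, the chemokine receptor gene Cxcr2 and the chemokine gene Cxcl6, and Cxcr2 and Cxcl6 were above background at 1 of 2 control spots only. The share of 6% is set beside the 3.91% over all genes.

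The remaining primary granule genes were few. Prtn3, which encodes proteinase 3, was well above background in the aneurysm library only, with a mean intensity of 25.9, against 11.4 in the control. Its measured level was 1.93-fold higher there (difference 0.95, spot error 0.56). Gusb (0.28 ± 0.09) and Lyz2 (0.25 ± 0.05), which encode a lysosomal glucuronidase and lysozyme, are also expressed in macrophages. Ctsg, which encodes cathepsin G, Bpi and Prss57 were below the detection flag on both arrays. Gusb and Lyz2 were above 0 under each correction and scaling. Prtn3 had no value with normexp. A gene above background in the aneurysm library only is given a value only where it is above 0, so its sign could not turn.

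Of 9 other secondary and tertiary granule genes with a value, 4 were above 0 and 5 below, with a median of -0.07 (-0.15 to 0.24 over the other corrections and scalings). Besides Hp, the integrin subunit genes Itgam, a marker of neutrophils and macrophages, and Itgb2 were at 0.45 ± 0.18 and 0.39 ± 0.08. With normexp they were at 0.17 and 0.12, and their lowest values over the other corrections and scalings were 0.07 and 0.04. Olfm4, an olfactomedin of a neutrophil subset, was well above background at 1 of 2 control spots only (intensities 21.6 and 3.71). Its mean intensity in the aneurysm library was 3.42, near that of the dim control spot. The bound was at least 1.68-fold lower in the aneurysm library, but -0.41 with normexp and -0.45 with spike-in scaling. The collagenase gene Mmp8 and the gelatinase gene Mmp9 were not well above background on either array. Cybb, the large subunit of the phagocyte oxidase, was at -0.07 ± 0.16, but at 0.24 with spike-in scaling. All 5 measured oxidase genes were under 2-fold (median 0.06, range of medians 0.01 to 0.36), with Ncf4 at 0.33 ± 0.09, Rac2 at 0.19 ± 0.06 and Ncf1 at -0.06 ± 0.06.

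The alpha-defensins are peptides of rat neutrophil granules that belong to a cluster of close copies, so a probe may read more than 1 of them and each value is uncertain as to gene. None of the 4 measured defensin genes reached 2-fold (median 0.38, or 0.09 with normexp on median signals). Defa5, Np4 and RatNP-3b were above 0 under each correction and scaling. Defa24 had no value with normexp, and its sign could not turn, since it is given a value only where it is above 0. Defa5 had a mean intensity of 98.4 in the aneurysm library and of 58.1 in the control, a difference of 0.39 ± 0.18. Np4 was at 0.37 ± 0.26 and RatNP-3b, read by 1 spot per array, at 0.37 ± 0.23. Defa24 was well above background in the aneurysm library only, and its measured difference of 0.55 was smaller than its spot error of 0.67. Another 4 defensin genes, Defa11, Defal1, Defa8 and Defa6, were not well above background on either array.

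Of 15 other receptor genes, 10 were above 0 and 5 below, and the median of 0.20 turned to -0.04 with normexp on processed and -0.07 on median signals. Cxcr2, the receptor for neutrophil chemokines, had spot intensities of 9.03 and 4.08 in the aneurysm library, against 6.22 and 27.3 in the control, and the spot at 27.3 alone was well above background. The spots of the arrays overlapped. The gene was at least 2.44-fold lower in the aneurysm library (spot error 0.74), and under 2-fold with normexp (-0.50) and with spike-in scaling (-0.98). Fcgr3a, an Fc receptor shared with macrophages and natural killer cells, was 1.87-fold higher (0.90 ± 0.11), and 0.73 with normexp. C5ar2, a receptor for the complement peptide C5a, was well above background in the aneurysm library only and measured 1.73-fold higher there (spot error 0.63). Tlr4, the endotoxin receptor that also binds calprotectin, was at 0.54 ± 0.15, and Ager, another calprotectin receptor, at -0.46 ± 0.15. Cxcr1, Trem1 and Clec4e were not well above background on either array.

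Of 9 attractant and growth factor genes, 5 were above 0 and 4 below, with a median of 0.00 (-0.16 to 0.31). Csf3, which encodes G-CSF, was at 0.33 ± 0.38, and at -0.05 with normexp. The chemokine gene Cxcl1, well above background in aneurysm only, measured 1.35-fold higher there, and Cxcl2 was at 0.09 ± 0.38, below 0 with normexp (-0.14). Cxcl6 was well above background at 1 of 2 control spots only (intensities 6.92 and 18.5) and at least 2.12-fold lower in the aneurysm library, a bound that was under 2-fold with normexp (-0.42) and with spike-in scaling (-0.78). Anxa1, which encodes annexin A1, a protein that limits neutrophil entry, was at 0.51 ± 0.06. Ppbp, Il17a, Il1a and Il6 were not well above background on either array.

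Granulocyte transcription factor genes were all under 2-fold, with a median of 0.10 (-0.07 to 0.40). Cebpd and Cebpb, acute phase and myeloid factors, were at 0.63 ± 0.06 and 0.51 ± 0.06, Klf5 was at 0.36 ± 0.04 and Spi1, which encodes PU.1, was at -0.15 ± 0.27 (0.15 with spike-in scaling). Cebpe, a factor of secondary granule genes, and Gfi1 were not well above background on either array. Among 7 genes of protease inhibitors, Serpina3n (-5.10 ± 0.17) and Serpina1 (-4.17 ± 0.11), both liver products, were at least 2-fold lower (-3.82 and -3.29 with normexp on median signals), whereas A2m was at 0.31 ± 0.07 and Slpi at -0.29 ± 0.14 (0.02 with spike-in scaling). The list median was -0.24 (-0.30 to 0.06). Of 10 other S100 genes, 5 were above 0 and 5 below (median 0.02, range -0.04 to 0.32). S100a5 was 3.88-fold lower (-1.35 with normexp on median signals), but its control spots lay far apart, at intensities of 438 and 71.6. S100b was at -0.47 ± 0.06, S100a6 at 0.36 ± 0.05 and S100a13 at -0.27 ± 0.06 (0.03 with spike-in scaling).

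**Figure D3:**
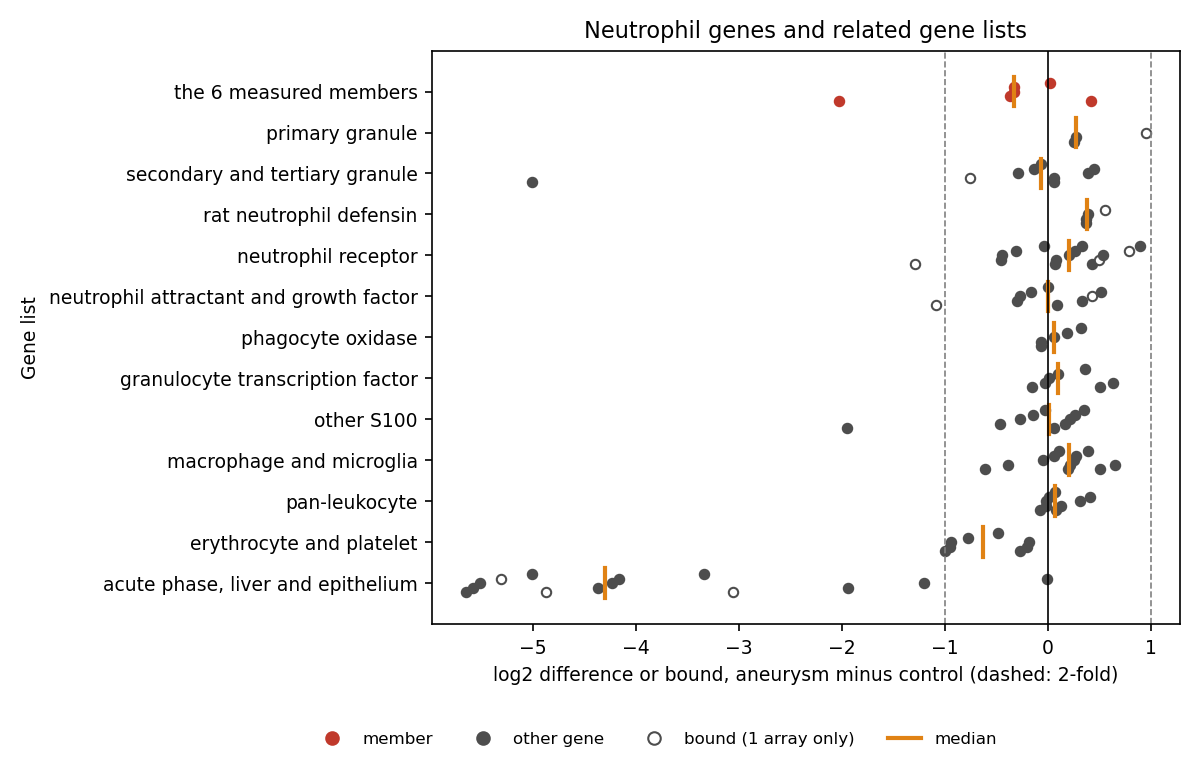
Log2 difference or bound, aneurysm minus control, of the 6 measured genes of the set (red) and of the other genes of related lists (grey). Open points are bounds for genes well above background on 1 array only, orange bars are list medians and dashed lines mark 2-fold. Most neutrophil genes lie within 2-fold, Lcn2 and Hp lie further down, and the liver list has a median of -4.30.

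Markers of blood and of other cells were read in the same libraries. All 8 measured erythrocyte and platelet genes, a measure of blood in the tissue, were below 0 in the aneurysm library (median -0.63, and -0.33 with spike-in scaling, where Ahsp, Pf4 and Gp9 were above 0). Their summed level was 105 times the 75th percentile in the aneurysm library and 198 times in the control, Hba-a1 was at -0.95 ± 0.05 and Hbb-b1 at -0.94 ± 0.05, and Ppbp was below the detection flag on both arrays. The part of blood in the differences of S100a8, S100a9 and Camp was not tested. The 12 macrophage and microglia genes, all measured, had a median of 0.21 (9 above 0) and summed levels of 102 in the aneurysm library and 89.2 in the control, led by Cd163 at 0.65 ± 0.09 and Cx3cr1 at -0.61 ± 0.06. Of 9 pan-leukocyte genes, 6 were above 0 and 0 reached 2-fold (median 0.07, summed levels 45.2 in the aneurysm library and 44.9 in the control), with Ptprc, which encodes CD45, at 0.41 ± 0.04. Of 8 lymphocyte genes, 6 were above 0 (median 0.17, but -0.04 and -0.07 under the 2 normexp settings). Cd8a, well above background in the aneurysm library only, measured 2.10-fold higher there (0.12 with normexp). Gzmb was at -1.40, a value that rests on 1 of 2 discordant control spots (intensities 249 and 3.80). Epx and 5 other eosinophil or basophil genes were not well above background on either array, and Prg2 (-0.21 ± 0.17) and Siglec5 (-0.26 ± 0.38) were above 0 with spike-in scaling. Of the markers of the vessel wall, all 8 smooth muscle genes (median 0.28, Myh11 at 0.08 ± 0.05) and all 7 endothelial genes with a probe (median 0.17, but -0.01 with normexp on median signals) were well above background, as were 11983 of the 15159 matched genes.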

How the data were processed

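The authors deposited intensities as 1 scanner file per array. Per the file headers it came from Feature Extraction 10.10.1.1 and holds a linear processed intensity for each spot, with flags for background, saturation and outliers. Labels name a fibrous tissue RNA kit and one-colour Cy3 labelling. Samples were grouped by title, with 1 array each.

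From each log2 intensity the 75th percentile of its own array was subtracted, taken over 58717 non-control spots. Outlier spots were left out (573 in the aneurysm and 484 in the control library) and spots of a probe averaged. A probe counted as well above background unless more of its spots lacked that flag than had it. Probes were named by accession through a RefSeq table of build GRCr8, from which names only were taken, since the array was designed on another build. Each gene took the brightest of its probes that passed on 1 array or both. A gene above background on 1 array only has a bound, against the higher of its dim value and the lowest value well above background on that array. Where the dim value was the higher, the bound is the measured difference and not a minimum. A bound that did not point toward the array above background was left out. Spot SDs were pooled in 20 signal bins. The code (Python 3.11.15, limma 3.58.1) was tested on simulated arrays.

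Every member is named, with up to 4 genes per list of largest absolute difference and a fixed set of neutrophil genes; Ahsp, Pf4, Gp9, Lbp, Crp, Ager and Myh11, and genes listed as not above background, were named after their values were seen. Members, lists and tests were chosen with earlier results of these data known. Normexp ran on processed signals because mean signals were not used here, and, added after seeing the data, on median signals. Other alternatives were quantile normalization, median centring, the percentile over bright probes, spike-in scaling, outlier spots kept, the mean over probes, a stricter flag rule and no filter on dim probes.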

Additional observations from a re-analysis of the deposited data

How the results depend on the processing

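The difference of each of the 6 measured genes was recomputed under 10 alternatives, giving 60 values, of which 51 moved by less than the spot error and 9 by more. Keeping outlier spots, the mean over probes and no filter on dim probes could not move these differences. Each of these genes has 1 probe, well above background on both arrays and without outlier spots. The stricter flag rule left the differences unchanged too, so the 51 include values that could not move. S100a8, S100a9, Lcn2 and Camp were below 0 under all 10, of which only the 6 other corrections and scalings moved any value. Csf3r was below 0 under 2 and Fpr1 under 3. The count of genes at least 2-fold lower, 1, became 0 with normexp on median signals, an alternative chosen after seeing the data, and kept its value under the others. It was also 1 at thresholds of 1.5-fold and 4-fold, which were read with the reported scaling only. Lcn2 passed 4-fold there narrowly, at -2.03 ± 0.28. It was under 4-fold with quantile normalization (-1.86), median centring (-1.997), spike-in scaling (-1.72) and both normexp settings (-1.01 and -0.98). The count of genes at least 2-fold higher was 0 throughout. The median of the set was -0.019 with spike-in scaling, which moved the median of all genes to 0.30. No paired analysis was possible because each group has 1 array, and for the same reason no replicate could be left out. Signal over background limits Elane, Ngp and Ltf, for which no difference could be read, and Csf3r, for which 1 of 2 control spots was not above background. It also limits the size of the Lcn2 difference, which rests on dim aneurysm spots at 16.5 and 18.8. Each gene rests on 1 probe, so no second probe checks a value.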
